A study of Mus musculus with 20 samples.

Results

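The genes described here encode the proteins of the cytosolic ribosome. They were taken by name from the gene table: symbols made of Rpl or Rps and a number, with an optional a or x, plus the stalk genes Rplp0, Rplp1 and Rplp2. Pseudogenes and like-named relatives were left out. This gave 75 of 21361 genes, 46 for the large subunit and 29 for the small subunit, on 19 chromosomes. The rule leaves out proteins of the same particle with other names, such as Rps3a1, Rpsa, Fau and Rack1, which are given separately.

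A ribosome needs 1 copy of nearly every one of its proteins beside its ribosomal RNAs, so cells usually make these mRNAs in step. Many of them begin with a run of pyrimidines at the 5′ end, the TOP element, through which the kinase complex mTORC1 and the RNA-binding protein LARP1 control their translation and stability. In pluripotent stem cells, which divide quickly, ribosomal protein mRNAs are among the most abundant of all mRNAs.

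Poly(A) RNA was sequenced from 20 libraries of mouse stem cell lines, 1 library per line and state. The ESC Host group held 4 wildtype C57Bl6J embryonic stem cell (ESC) lines from host embryos. The PGC-ESC lines came from primordial germ cells put into early embryos. They were 3 lines without both Puma and Noxa (PGC-ESC DKO, C57Bl6J) and 5 without Bax (PGC-ESC BaxKO, C57Bl6J/129SvEvRoEp). Between the PGC-ESC DKO and ESC Host lines, origin, DKO genotype and an EGFP reporter go together and cannot be told apart. The same holds for the epiblast-like cells made from them. Puma, Noxa and Bax promote apoptosis. ESC BaxKO (2 lines derived earlier) and ESC BaxHet (1 heterozygous line) carried the same mixed strain label, so Bax genotype and strain cannot be told apart. The ESC and PGC-ESC lines were grown in medium with leukaemia inhibitory factor and inhibitors of MEK and GSK3. Epiblast-like cells (EpiLC), an in vitro state close to the epiblast after implantation, came, by their titles, from ESC Host lines 3 and 4 and from all 3 PGC-ESC DKO lines. How the EpiLC cultures were made was not given in the sources used here, and their growth entry is the same as that of the other lines.

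The libraries held 14255399 to 33376660 counts each. The naive factor Klf4 was at 230.8 to 635.1 CPM (counts scaled to a common library total) in the 15 ESC and PGC-ESC libraries and at 2.46 to 10.8 CPM in the 5 EpiLC libraries, while the epiblast factor Pou3f1 was at 2.26 to 7.53 CPM and at 276.1 to 561.5 CPM. The summed level of the 6 epiblast-like markers did not separate the states (1897 to 2769 CPM in EpiLC Host, 2128 to 2687 CPM in ESC Host) and it includes Pou5f1 and Sox2, which are also naive markers. The epiblast factor Otx2 was at 2.81 and 6.94 CPM in EpiLC Host. Markers of other cell types moved with the state. In EpiLC and in the other libraries, 4 neuroectoderm markers summed to 149.1 to 256.8 and 17.1 to 39.0 CPM, 4 trophoblast markers to 12.6 to 32.4 and 95.2 to 203.2 CPM, and 6 fibroblast markers to 149.1 to 222.4 and 562.1 to 2189 CPM. The fibroblast sum was also higher in ESC BaxKO (1687 and 2036 CPM) than in ESC Host (562.1 to 1590 CPM), and was nearly all Fn1, with Col3a1 and Postn under 10 CPM in every library. The 6 primitive endoderm markers stayed under 10 CPM in all 20 libraries. The part of these markers in the results was not tested. Rn45s, the precursor of the ribosomal RNAs, lay at 1913 to 5106 CPM in 9 libraries and at 17130 to 51924 CPM in the other 11. The low set held ESC Host 1 and 2, ESC BaxKO 1, ESC BaxHet and all PGC-ESC BaxKO libraries.

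The promoters of several members are shown to compare those with and without a long pyrimidine run at the start, the feature for which the family is best known. RefSeq promoter windows (GRCm38.p6) were matched by symbol for 55 of the 75 members. Each line gives 45 bases before and 15 bases from the annotated start, 5′ to 3′ on the gene's strand. Capitals mark runs of at least 8 pyrimidines.
Rpl15 (chr14:18270972-18271031, minus strand): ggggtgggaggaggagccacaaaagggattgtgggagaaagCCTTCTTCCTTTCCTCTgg
Rpl7a (chr2:26910762-26910821, plus strand): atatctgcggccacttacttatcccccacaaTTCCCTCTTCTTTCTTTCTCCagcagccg
Rpl35 (chr2:39005117-39005176, minus strand): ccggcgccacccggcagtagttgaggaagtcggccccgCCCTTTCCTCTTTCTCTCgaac
Rps6 (chr4:86857353-86857412, minus strand): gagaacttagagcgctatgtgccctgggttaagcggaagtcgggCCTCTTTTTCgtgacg
Rpl4 (chr9:64173342-64173401, plus strand): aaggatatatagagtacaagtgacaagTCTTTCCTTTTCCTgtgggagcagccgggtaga
Rpl41 (chr10:128549154-128549213, minus strand): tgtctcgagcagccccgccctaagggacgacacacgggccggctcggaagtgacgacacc
Rps2 (chr17:24720018-24720077, plus strand): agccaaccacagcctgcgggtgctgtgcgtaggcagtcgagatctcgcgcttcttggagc
Rps4x (chrX:102189377-102189436, minus strand): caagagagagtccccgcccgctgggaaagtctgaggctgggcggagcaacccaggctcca

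The first 5 windows hold a long pyrimidine run close to the annotated start, and the last 3 hold none at this position. Over the stretch from 30 bases before to 20 bases after the start, 29 of 55 members (52.7%) had a run of at least 8 pyrimidines, against 22.9% of all 27025 genes with a window and 23.2% of the 12737 tested genes with one. Within 250 bases before to 50 bases after the start, the ETS-type motif CCGGAAG, searched on both strands, was in 22 of 55 members (40.0%) and in 17.5% of tested genes. AAGATGG, part of the YY1 motif, was in 9 of 55 (16.4%) and 7.73% on both strands, and TATAAA on the gene's strand was in 5 of 55 (9.09%) and 5.83%. These are matches of letters, and a start annotated a few bases off moves a run in or out of the stretch.

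Of the 75 members, 71 had at least 100 CPM in every library, with values from 198.0 to 4464 CPM. Per kilobase of principal transcript (GENCODE M21), Rplp1, an acidic protein of the stalk that recruits translation factors, had the highest mean over the 20 libraries, at 3383 CPM per kb. Rps12 followed at 2594 CPM per kb, and Rps2, which lies by the mRNA entry channel of the small subunit, at 2491 CPM per kb. The stalk base Rplp0 was at 1984 and its partner Rplp2 at 1797 CPM per kb. Of the 2 proteins that travel with 5S rRNA and bind Mdm2 when ribosome assembly fails, Rpl11 was at 1267 and Rpl5 at 639 CPM per kb. Rps6, the substrate of S6 kinase, was at 1375 CPM per kb, Rps27a, made as a fusion with ubiquitin, at 1115, and Rpl22 at 304.

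The other 4 members were almost uncounted, although all encode core proteins of the particle. Rpl26 had reads in 1 library only, at 0.0611 CPM. Rpl30 was counted at 0.242 to 1.89 CPM, Rps27 at 0.856 to 2.79 CPM and Rpl34 under 10 CPM in every library. Ribosomal protein genes have many near-identical pseudogene copies in the mouse genome, and how reads that fit several places were counted was not given in the sources used here. These 4 values therefore cannot be read as mRNA levels, and those of the other 71 members are uncertain to the extent that copies took reads from them. Rpl26 fell below the filter on low counts, and the other 74 members were tested.

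**Figure D1:**
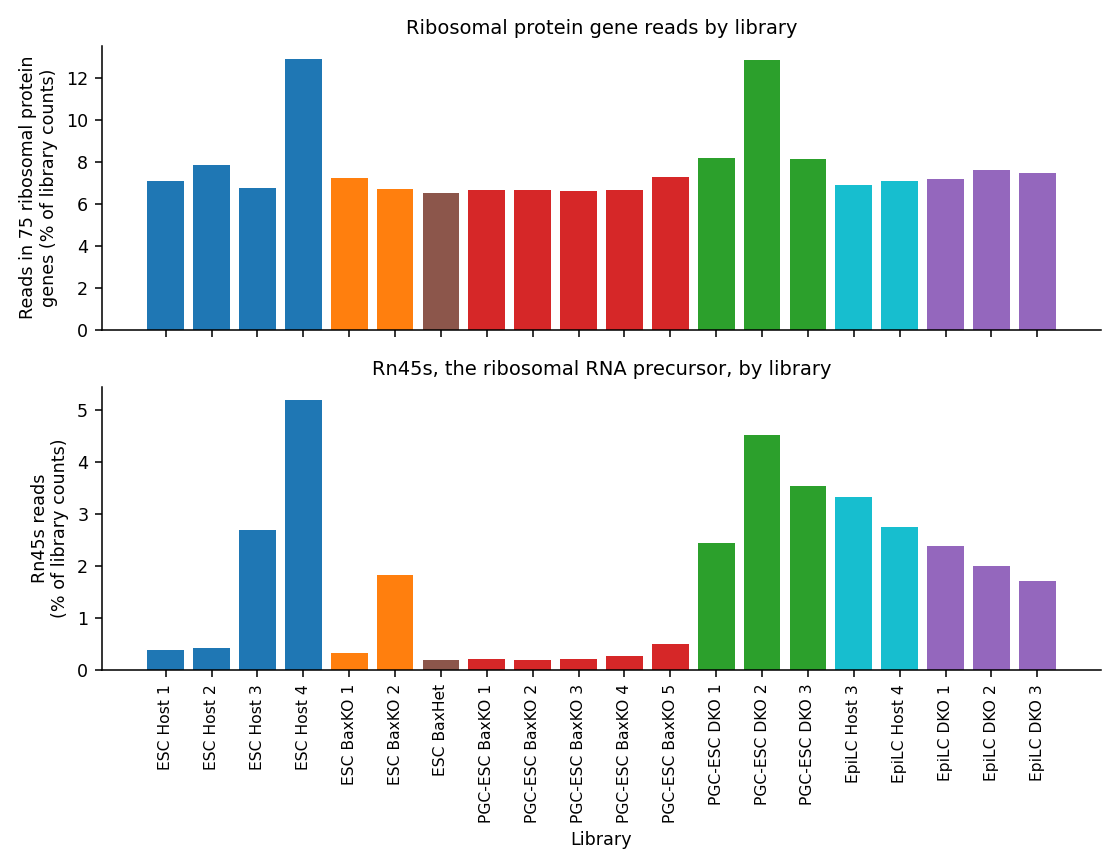
The upper bars show the percent of each library's counts in the 75 ribosomal protein genes, the lower bars the percent in Rn45s, with 1 bar per library coloured by group. ESC Host 4 and PGC-ESC DKO 2 stand at 12.9% in the upper panel, and the other 18 libraries lie between 6.51% and 8.20%.

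Together the members took 12.9% of counts in ESC Host 4 and 12.9% in PGC-ESC DKO 2. In the other ESC Host libraries they took 7.12%, 7.87% and 6.77%, and in the other PGC-ESC DKO libraries 8.20% and 8.14%. The 2 high libraries thus stood outside the range of all others, 6.51% to 8.20%, which is seen in the bars of counts by library. The ESC BaxKO libraries had shares of 7.25% and 6.73%, and the single ESC BaxHet library had 6.51%. PGC-ESC BaxKO was at 6.65%, 6.67%, 6.62%, 6.65% and 7.30%. EpiLC Host was at 6.92% and 7.11%, and EpiLC DKO at 7.19%, 7.63% and 7.50%. The ratio of large to small subunit counts moved little, from 1.53 to 1.67, so both subunits shared the high libraries. In bulk RNA of this kind, fewer cells with a high level and less RNA in each cell cannot be told apart.

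In the 2 high libraries the excess ran through the whole family. Against the mean of the other libraries of its group, ESC Host 4 had a median log2 difference of 1.10 over the 74 members, with 74 of 74 higher, and PGC-ESC DKO 2 had 0.80, again with 74 of 74 higher. The stalk base Rplp0 read 2602, 2962, 2553 and 4464 CPM in ESC Host 1 to 4. In PGC-ESC DKO 1 to 3 it read 3005, 4114 and 2729 CPM. Rpl11 read 886, 945, 943 and 1887 CPM, then 1149, 1884 and 1155 CPM in the same order. In both genes the high library was well above its group and the others lay close together.

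Other transcripts moved with the family in these libraries. The 78 mitochondrial ribosomal protein genes had median differences of 0.85 in ESC Host 4 and 0.52 in PGC-ESC DKO 2, and 15 translation genes of the TOP class had 0.62 and 0.35. The 45 genes of rRNA processing, which work on the same particle, had 0.19 and 0.00. Among all other genes with a length, the median difference was 0.77 and 0.55 for the 930 transcripts under 1 kb, 0.32 and 0.24 at 1 to 2 kb, -0.08 and -0.05 at 2 to 4 kb, and -0.39 and -0.26 above 4 kb. These libraries also had the highest Rn45s, at 51924 and 45205 CPM. The part of transcript length and Rn45s in the family's level was not tested. The main counts and medians are given with and without these libraries.

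Across the 20 libraries the median SD of a member's log2 CPM was 0.41, against 0.54 over all 16363 tested genes. After each library's median member level was subtracted it was 0.13, and 58 of 74 members were under 0.2. For 57 members the correlation with the median of the other members was over 0.9 across the 20 libraries, which share the 2 high ones. Without these, the median SD was 0.19 (0.52 over all tested genes) and 0.12 relative to the median member, 60 members were under 0.2, but only 10 had a correlation over 0.9. The high correlations thus rest on those libraries. Rpl7a, Rpl15, Rpl7 and Rpl6 varied least in log2 CPM, with SDs of 0.24, 0.26, 0.26 and 0.29. The SD was largest for Rpl41 (0.73), Rpl30 (0.73, with few reads), Rpl36a (0.57) and Rpl13a (0.55).

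**Figure D2:**
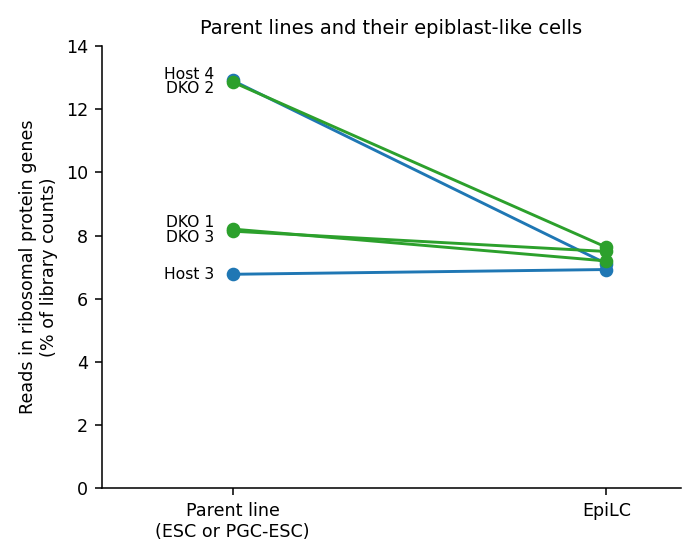
Percent of library counts in the 75 ribosomal protein genes in each parent line and in the epiblast-like cells made from it, 1 line per pair, with Host lines in blue and DKO lines in green. The parents range from 6.77% to 12.9% and the 5 EpiLC libraries from 6.92% to 7.63%.

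The first question was what happens to the family when naive cells become epiblast-like. In the lines drawn from parent to EpiLC, the share went from 12.9% to 7.11% in Host 4 and from 12.9% to 7.63% in DKO 2. It went from 8.20% to 7.19% in DKO 1 and from 8.14% to 7.50% in DKO 3. In Host 3 it was 6.77% before and 6.92% after. As a median over members on TMM-scaled values, the log2 difference was -0.11 in Host 3 with 54 of 74 members lower, -1.21 in Host 4 (74 lower), -0.41 in DKO 1 (73 lower), -1.13 in DKO 2 (74 lower) and -0.21 in DKO 3 (68 lower). On plain CPM the Host 3 pair turned, with 27 of 74 members lower and a median of 0.05, so its direction depends on the scaling. In the other 4 pairs 64 to 74 members were lower on plain CPM, with medians from -0.88 to -0.12.

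In DKO lines the fall was called for 27 of 74 members by edgeR's quasi-likelihood test at an adjusted p under 0.05 (Benjamini-Hochberg over all tested genes), and none rose. The background of this comparison was broad: 47.6% of all tested genes were called and 22.5% were called lower. The median over members was -0.63 on the log2 scale, against 0.01 over all tested genes. The large subunit had 11 of 45 members called and the small subunit 16 of 29. In 67 of 74 members, all EpiLC DKO libraries were below all PGC-ESC DKO libraries in TMM-scaled CPM, which held for 29.3% of tested genes. Without PGC-ESC DKO 2 this was again 67 members, and 34.1% of genes.

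Rps23, a protein of the decoding centre, read 1200, 2167 and 1222 CPM across the PGC-ESC DKO parents 1 to 3. Their EpiLC read 867, 925 and 969 CPM. The 2 sets did not overlap, and the log2 change was -0.95 ± 0.28 (SE, adjusted p = 0.0105, edgeR). Rpl15, a large subunit protein near the base of the particle's core, read 769, 817 and 790 CPM and then 605, 659 and 701 CPM. It changed less (-0.47 ± 0.14) but had the smallest adjusted p (0.00902, edgeR), and its parent libraries lay close together. Rpl32 read 920, 1456 and 909 CPM, then 671, 708 and 713 CPM, a change of -0.86 ± 0.27 (adjusted p = 0.0142, edgeR). Rps29 read 453, 767 and 487 CPM, then 331, 361 and 414 CPM, a change of -0.84 ± 0.27 (adjusted p = 0.0170, edgeR). In all 4 genes the DKO 1 and DKO 3 parents also lay above the EpiLC libraries. Of the other genes named above, Rplp2 (-0.78 ± 0.29), Rps6 (-0.60 ± 0.22), Rpl22 (-0.66 ± 0.26) and Rps27a (-0.54 ± 0.22) also fell, at adjusted p of 0.0371, 0.0302, 0.0462 and 0.0499 (edgeR). Rplp0 (-0.30 ± 0.23, adjusted p = 0.297, edgeR), Rpl11 (-0.58 ± 0.28, adjusted p = 0.102, edgeR) and Rpl5 (-0.58 ± 0.24, adjusted p = 0.0548, edgeR) did not pass.

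The count depended on the libraries and the model. With the line as a block, in a fit of only the PGC-ESC DKO and EpiLC DKO libraries, 57 members were called lower (24.5% of tested genes were). Without PGC-ESC DKO 2 alone it was 1, for which no share of tested genes is given. With ESC Host 4 left out as well it was 53 (24.5%), of which 26 were among the 27. ESC Host 4 is in neither group of this comparison and enters only through the scaling and the fit over all 7 groups. The median without both was -0.36. Rps23 was then at -0.61 ± 0.09 (adjusted p = 7.72e-05, edgeR), Rpl15 at -0.47, Rpl32 at -0.61, Rps29 at -0.56, Rplp2 at -0.45, Rps6 at -0.40, Rpl22 at -0.36 and Rps27a at -0.34, all called.

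In wildtype Host lines no member was called by edgeR, although 44.0% of tested genes were called and 21.7% called lower. At an unadjusted p under 0.05 there were 18, and DESeq2 also called 0 (34.9% of all genes). All 74 estimates were below 0, with a median of -0.47 against -0.03 over all tested genes, and in 29 of 74 members both EpiLC libraries were below all 4 ESC Host libraries (27.4% of tested genes; again 29, and 32.6% of genes, without ESC Host 4). Rps23 read 1013, 1143, 1028 and 2029 CPM before conversion and 947 and 869 CPM after it, with no overlap and a log2 change of -0.70 ± 0.31 (adjusted p = 0.0712, edgeR). With the line as a block, 23 members were called lower (19.2% of tested genes were). That fit held only the ESC Host and EpiLC Host libraries of lines 3 and 4, with few residual degrees of freedom. It left out ESC Host 1 and 2 and kept the high library ESC Host 4. Its pairs differed, with median changes over members of -0.11 in Host 3 and -1.21 in Host 4. Without the 2 high libraries the median was -0.13 and 8 were called lower (23.8%), with Rps23 at -0.32 ± 0.09 (adjusted p = 0.0110, edgeR) and Rplp2 at -0.38 ± 0.14 (adjusted p = 0.0367, edgeR).

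The response to conversion was then compared between DKO and Host lines. No member differed by edgeR, 0 had an unadjusted p under 0.05, and DESeq2 called 0. Of all tested genes, 0.00611% were called by edgeR and 0.0234% of all genes by DESeq2. The median of the difference was -0.13 with all libraries, and it was 0.08 with the line as a block and -0.24 without the 2 high libraries, so its sign was not settled. Between the 2 kinds of EpiLC themselves, no member was called by edgeR (0.0428% of tested genes were), 1 had an unadjusted p under 0.05, and DESeq2 called 0 (0.154% of all genes). The median was 0.09, and 27 of 74 members had all EpiLC DKO libraries above both EpiLC Host libraries, against 12.4% of tested genes.

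**Figure D3:**
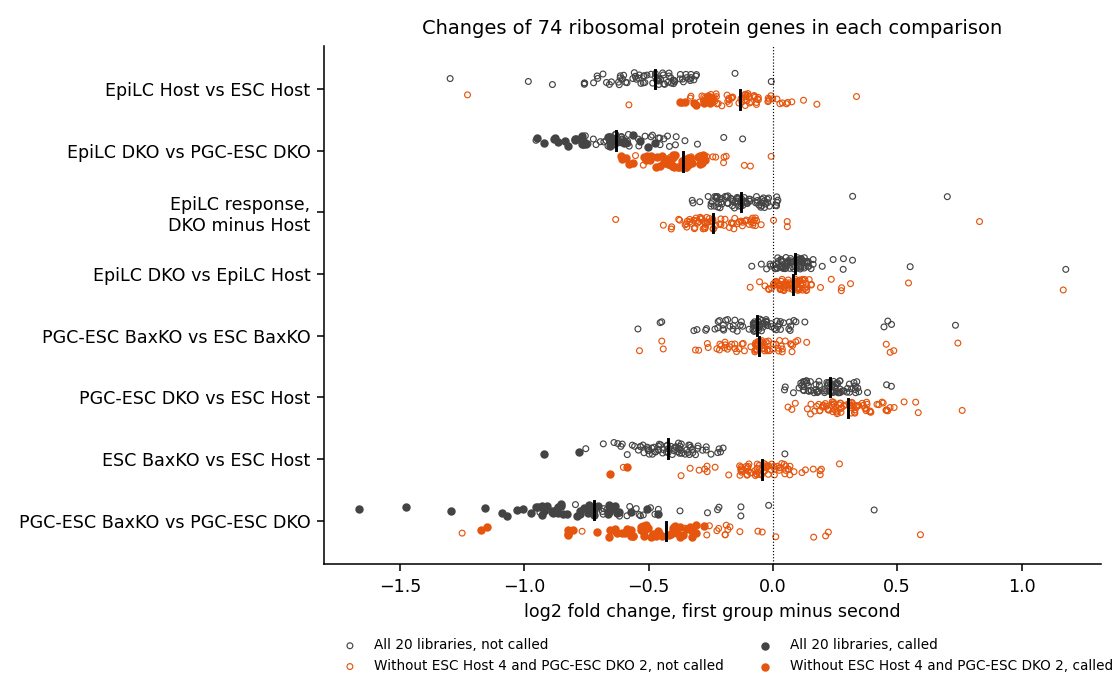
Each point is 1 of the 74 tested members, placed by its log2 fold change in the comparison named at the left; grey points use all 20 libraries and orange points leave out ESC Host 4 and PGC-ESC DKO 2. Filled points passed the adjusted p of 0.05 and black bars are medians, which in EpiLC DKO against PGC-ESC DKO move from -0.63 to -0.36.

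Among the undifferentiated lines, the comparison of PGC-ESC BaxKO with PGC-ESC DKO gave the most calls. In it 47 of 74 members were lower in PGC-ESC BaxKO and none was higher, where 23.6% of tested genes were called and 11.4% called lower. The median was -0.72, against 0.02 over all tested genes. In 60 of 74 members all 5 BaxKO libraries were below all 3 DKO libraries (14.8% of tested genes; again 60, and 18.3% of genes, without PGC-ESC DKO 2). The large subunit had 26 of 45 members called and the small subunit 21 of 29. The 47 include Rpl30, whose few reads do not allow its value to be read as an mRNA level.

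Rps2 read 1490, 1518, 1431, 1453 and 1864 CPM across the PGC-ESC BaxKO lines. The PGC-ESC DKO lines read 3173, 3948 and 3018 CPM. The groups were far apart, and the log2 change was -1.29 ± 0.19 (adjusted p = 0.000332, edgeR). Rpl3, a protein close to the site of peptide bond formation, read 1632, 1685, 1605, 1579 and 1272 CPM against 2494, 2947 and 2456 CPM, a change of -0.93 ± 0.16 (adjusted p = 0.00116, edgeR). Rpl29 read 521, 512, 541, 490 and 592 CPM against 859, 1220 and 808 CPM, a change of -1.03 ± 0.19 (adjusted p = 0.00177, edgeR). Neither gene overlapped between the groups. Rplp0 read 1863, 2033, 1924, 1982 and 2322 CPM against 3005, 4114 and 2729 CPM, a change of -0.87 ± 0.20 (adjusted p = 0.00740, edgeR).

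Rpl41, which encodes a very short basic protein, had the lowest estimate of the 74, with 570 to 700 CPM in the BaxKO lines against 1258, 2634 and 1220 CPM in the DKO lines (-1.66 ± 0.39, adjusted p = 0.00750, edgeR). Rps27a (-0.26 ± 0.19, adjusted p = 0.328, edgeR) and Rpl7 (-0.22 ± 0.17, adjusted p = 0.342, edgeR) did not pass. The members did not fall by the same amount.

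Without both high libraries 53 of 74 were called lower (9.92% of tested genes were), 46 of them among the 47, and the median was -0.43. Rps2 was then at -1.15, Rpl3 at -0.82, Rpl29 at -0.80, Rplp0 at -0.66 and Rpl41 at -1.17, all called. Without PGC-ESC DKO 2 alone 4 members were called, for which no share of tested genes is given. Here too ESC Host 4 is in neither group and enters only through the scaling and the common fit. Every PGC-ESC DKO library was in the high Rn45s set and every PGC-ESC BaxKO library in the low set, so cell line, strain and Rn45s set cannot be told apart here. With Rn45s as a covariate, 0 members and 0.727% of tested genes were called by edgeR. This fit cannot separate them either, since Rn45s runs with the groups.

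ESC BaxKO against ESC Host makes a contrast of the same strain labels with other lines, and has Rn45s-low and Rn45s-high libraries on both sides. There 2 of 74 members were called, both lower, against 5.02% of tested genes called and 2.26% called lower. They were Rpl3 and Rpl29, both also among the 47 above, and the 2 comparisons share no library. Rpl3 read 1247 and 1673 CPM in the BaxKO lines against 2068, 2337, 2119 and 2882 CPM in the Host lines, with no overlap (-0.78 ± 0.20, adjusted p = 0.0315, edgeR). Rpl29 read 577 and 463 CPM against 828, 913, 703 and 1229 CPM, again apart (-0.92 ± 0.24, adjusted p = 0.0339, edgeR). In 11 members both ESC BaxKO libraries were below all ESC Host libraries (13.9% of tested genes; again 11, and 17.8% of genes, without ESC Host 4). The median over members was -0.42 and -0.04 without the 2 high libraries, while Rpl3 (-0.59 ± 0.14, adjusted p = 0.0264, edgeR) and Rpl29 (-0.66 ± 0.11, adjusted p = 0.00505, edgeR) were still called, as were 1.79% of tested genes in that direction. Leaving out ESC BaxKO 1 or ESC BaxKO 2 left 0 calls.

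The other 2 contrasts gave no calls. In PGC-ESC BaxKO against ESC BaxKO, which asks about origin within the mixed strain label, 0 members were called by edgeR (0.0367% of tested genes were), 2 had an unadjusted p under 0.05, DESeq2 called 0 (0.332% of all genes), and the median was -0.06. In PGC-ESC DKO against ESC Host, 0 were called by edgeR (0.116% of tested genes), 0 had an unadjusted p under 0.05 and DESeq2 called 0 (0.421% of all genes). All 74 estimates there were above 0 with a median of 0.23. The median was 0.58 without ESC Host 4, which left 1 call, -0.09 without PGC-ESC DKO 2, 0.30 with 0 calls without both, and -0.05 within the high Rn45s set. This contrast shares its libraries with the conversions and with the other contrasts of ESC Host and PGC-ESC DKO, so their estimates are not independent.

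**Figure D4:**
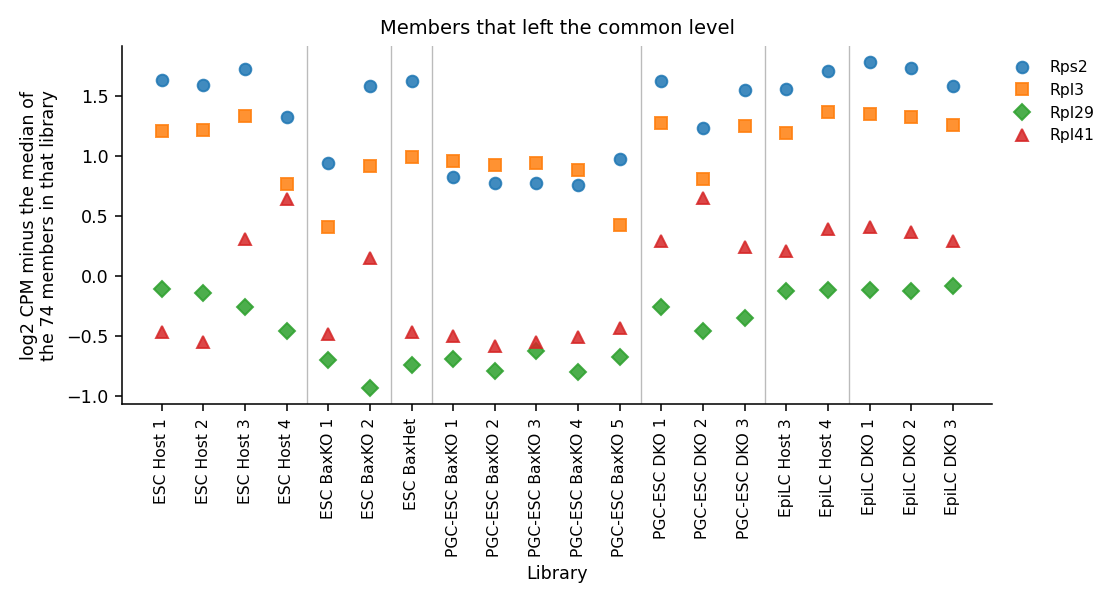
The level of Rps2, Rpl3, Rpl29 and Rpl41 in each library, as log2 CPM minus the median of the 74 members in that library, with grey lines between groups. Rpl29 lies between -0.93 and -0.62 in the 8 libraries of mixed strain label and between -0.46 and -0.08 in the other 12; Rpl41 lies between -0.58 and -0.43 in the low Rn45s libraries and between 0.15 and 0.65 in the others.

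Some members departed from the common level. The next values are on the log2 scale relative to the median member of the same library, so a level shared by all members drops out. They were singled out after their values were seen and carry no test. Rpl29 was at -0.93 to -0.62 in the 8 libraries of mixed strain label, ESC BaxHet at -0.74 included, and at -0.46 to -0.08 in the 12 C57Bl6J libraries. Rps2 was at 0.77 to 0.98 in the 5 PGC-ESC BaxKO libraries and at 0.95 in ESC BaxKO 1, but at 1.59 in ESC BaxKO 2 and 1.63 in ESC BaxHet. The remaining libraries had Rps2 at 1.24 to 1.79. Rpl3 was lowest in ESC BaxKO 1 (0.41) and PGC-ESC BaxKO 5 (0.43).

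Rpl41 followed the Rn45s sets. It was at -0.58 to -0.43 in the 9 low libraries and at 0.15 to 0.65 in the 11 high ones. The split ran through single groups: -0.47 and -0.55 in ESC Host 1 and 2, 0.31 and 0.64 in ESC Host 3 and 4, -0.48 in ESC BaxKO 1 and 0.15 in ESC BaxKO 2. Such a separation held for 11 of the 74 members, Rpl41 included, with 6 higher and 5 lower in the high set. Among the 11, Rpl18, Rps15 and Rps28 were higher in the high set, and Rpl27a, Rpl7, Rps24, Rps25 and Rps27a were lower. How many of all tested genes separate the sets was not computed, so the 11 are not read as more or less than the background. The split also runs with state and line. Rn45s was high in each EpiLC and PGC-ESC DKO library and low in each PGC-ESC BaxKO library. The part of Rn45s in the fall of Rpl41 in PGC-ESC BaxKO was not tested apart from the covariate, under which its estimate was 0.10.

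Bax lies on chromosome 7 at 45461697 to 45466898 (mm10), and Rpl13a and Rpl18 lie within 340 kb of it. Rpl13a, whose protein is released from the ribosome in the interferon response of some cells, read 1146, 1155 and 1180 CPM in lines 1, 3 and 4 of PGC-ESC BaxKO. Lines 2 and 5 read 1597 and 1778 CPM. It read 2182, 3752 and 2197 CPM in PGC-ESC DKO, and the difference between the groups was -1.16 ± 0.31 (adjusted p = 0.0144, edgeR). Rpl18 (-0.89 ± 0.23, adjusted p = 0.0111, edgeR) was also lower there. The ESC BaxKO lines had Rpl13a at 1798 and 1900 CPM, above ESC Host 1 to 3 (1511 to 1684 CPM) and below ESC Host 4 (3916 CPM).

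**Figure D5:**
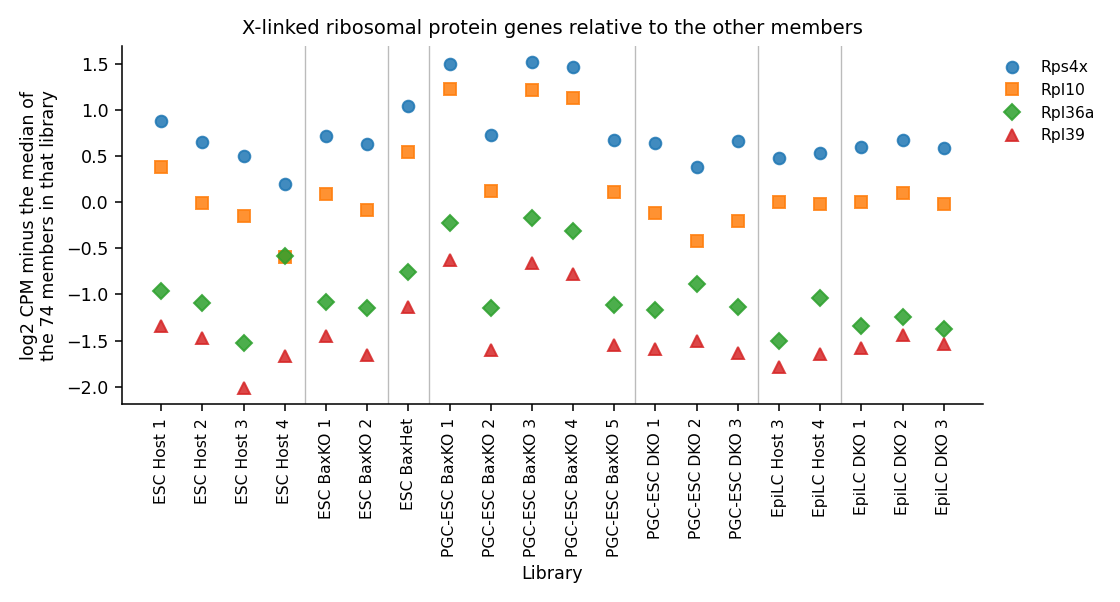
The 4 X-linked members in each library, as log2 CPM minus the median of the 74 members in that library, with grey lines between groups. In PGC-ESC BaxKO 1, 3 and 4 all 4 genes sit above their levels in PGC-ESC BaxKO 2 and 5.

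Of the 75 members, 4 are on the X chromosome: Rps4x, Rpl10, Rpl36a and Rpl39. Rps4x, a small subunit protein, read 2371, 2384 and 2353 CPM in lines 1, 3 and 4 of PGC-ESC BaxKO. Lines 2 and 5 read 1462 and 1502 CPM. Rpl10, which completes the large subunit late in assembly, read 1962, 1938 and 1874 CPM against 959 and 1018 CPM in the same libraries. Both genes split the group cleanly. Rpl36a was at 719, 742 and 689 CPM against 400 and 437 CPM, and Rpl39, which lines the exit tunnel, at 544, 529 and 498 CPM against 291 and 322 CPM.

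Relative to the median member and centred over the 20 libraries, the mean of the 4 genes was 0.84, 0.85 and 0.75 in lines 1, 3 and 4 of PGC-ESC BaxKO. Lines 2 and 5 had -0.10 and -0.09, with 0.30 in ESC BaxHet, 0.11 in ESC Host 1 and below 0 in the other 13 libraries. The median of 292 other X-linked genes was 0.81, 0.81 and 0.74 in lines 1, 3 and 4, and 0.33 in ESC BaxHet. Y-linked genes had a mean of 0 CPM in those 3 lines, against 53.5 and 53.0 CPM in lines 2 and 5. It was also 0 in ESC BaxHet, ESC Host 1 to 3 and PGC-ESC DKO 1 and 2. None of the 4 genes passed in PGC-ESC BaxKO against PGC-ESC DKO, where Rpl10 was at 0.41 ± 0.23 (adjusted p = 0.207, edgeR) and Rps4x at -0.02 ± 0.20 (adjusted p = 0.964, edgeR).

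Proteins of the particle with other names were lower as well. Rps3a1, of the small subunit, fell in both conversions (-0.43 ± 0.17 in Host lines, adjusted p = 0.0465; -0.52 ± 0.16 in DKO lines, adjusted p = 0.0117, edgeR). It was lower in ESC BaxKO than in ESC Host (-0.99 ± 0.17, adjusted p = 0.00341, edgeR) and in PGC-ESC BaxKO than in PGC-ESC DKO (-1.06 ± 0.14, adjusted p = 0.000116, edgeR). The scaffold Rack1 fell in DKO conversion (-0.59 ± 0.20, adjusted p = 0.0245, edgeR). Rack1, Rpsa and Fau were also called lower in PGC-ESC BaxKO against PGC-ESC DKO. Without the 2 high libraries, Rps3a1 was not called in Host conversion (-0.31 ± 0.13, adjusted p = 0.0719, edgeR) and Rpsa not in the last contrast (-0.50 ± 0.17, adjusted p = 0.0568, edgeR), while the other calls named here held.

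Of 8 tested paralogs of standard subunits, 4 were called lower in each conversion, where 21.7% (Host) and 22.5% (DKO) of all tested genes were called lower. Rpl10l, the autosomal relative of Rpl10 known from male germ cells, changed by -2.45 ± 0.52 on the log2 scale in Host lines (adjusted p = 0.00101, edgeR) and by -1.97 ± 0.45 in DKO lines (adjusted p = 0.00173, edgeR). ESC Host 2 had it at 20.7 CPM, close to the 19.1 and 15.2 CPM of EpiLC Host. The other ESC Host libraries had 83.9 to 124.6 CPM. Rpl39l, the relative of Rpl39, changed by -1.62 ± 0.56 (adjusted p = 0.0254, edgeR) and by -1.70 ± 0.50 (adjusted p = 0.00943, edgeR). In Host lines its groups overlapped, with 1.98 CPM in ESC Host 2 against 2.26 and 2.83 CPM in EpiLC, and it was not called without the 2 high libraries (-1.45 ± 0.60, adjusted p = 0.0591, edgeR). Rpl7l1 and Rps4l were the other called paralogs in both, with changes from -0.70 to -0.42. Rpl22l1, Rpl36al, Rpl3l and Rps27l were not called in either conversion, with estimates from -0.81 to 0.19.

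The machinery that makes and serves the ribosome was covered by lists of related genes, to be read against the 21.7% (Host conversion) and 22.5% (DKO conversion) of all tested genes that were called lower. Of 14 RNA polymerase I genes, 4 were lower in Host conversion and 5 in DKO conversion, led by Ubtf, the factor that opens rDNA (-1.22 ± 0.15, adjusted p = 4.78e-06 in Host lines; -0.99 ± 0.14, adjusted p = 1.40e-05 in DKO lines, edgeR). Of 45 rRNA processing genes, 3 were lower and 1 higher in Host lines, and 5 lower and 2 higher in DKO lines, with the treacle gene Tcof1 at -0.46 in both (not called in Host lines without the 2 high libraries, adjusted p = 0.0534, edgeR). Of 15 TOP-class translation genes, 2 and 4 were lower and 0 higher, Eef1g among them (-0.51 and -0.62). Of 78 mitochondrial ribosomal protein genes, 12 and 25 were lower and 0 higher, and 40 were lower in PGC-ESC BaxKO against PGC-ESC DKO, where 11.4% of all tested genes were. Without the 2 high libraries these counts were 12 (with 8 higher), 30 and 38. Mrps2 was at -1.11 and -1.04 in the conversions. Among 17 regulators, Myc, a transcription factor known to activate ribosome genes, rose by 3.23 ± 0.36 in Host lines and 2.89 ± 0.38 in DKO lines (adjusted p = 1.65e-06 and 8.59e-06, edgeR). It read 5.82 to 14.2 CPM in ESC Host and 89.1 to 116 CPM in EpiLC Host. Mycn fell in Host lines (-0.79 ± 0.23, adjusted p = 0.0103, edgeR) and was at -0.40 ± 0.21 in DKO lines (adjusted p = 0.129, edgeR). Without the 2 high libraries it was called lower in both, at -0.81 ± 0.23 and -0.63 ± 0.22 (adjusted p = 0.00984 and 0.0306, edgeR).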

How the data were processed

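Gene counts for 20 libraries, as deposited by the authors in 1 table, were used without change. Per the submitters' processing notes the reads were aligned with STAR 2.7.7a to mm10. The counting tool, its annotation, its strand setting and its treatment of reads that fit several places: not given in the sources used here. Groups came from the sample titles. The lines are separate, but with 1 library each the p-values measure only the spread between these libraries.

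CPM is the count scaled to a common library total, without TMM factors. The main test was edgeR 4.0.16 (R 4.3.3, limma 3.58.1): filterByExpr left 16363 genes, TMM scaling, a quasi-likelihood fit over all 7 groups (13 residual degrees of freedom) and Benjamini-Hochberg adjustment, with calls at an adjusted p under 0.05. DESeq2 1.42.0 was an alternative. Its counts are given only for the comparisons in which edgeR called no member. How many members it called in the other comparisons is not reported here. Fold changes are log2 with SE. The fit was tested on simulated data. Transcript lengths are medians of the principal transcripts in GENCODE M21.

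Same-numbered EpiLC and parent libraries were taken as 1 line because their titles share the line name and number. Their deviations correlated at r = 0.11 and 0.17 (Host) and 0.11, 0.12 and 0.09 (DKO) across genes. With 2 EpiLC Host libraries the deviations are opposite by construction, and EpiLC Host 3 also correlated with ESC Host 1, at 0.09. Alternatives were RLE scaling, no filter, the compared groups only, scaling without the members, Rn45s left out or as a covariate, the Rn45s sets split at 10000 CPM, a replicate block, a threshold of 0.01 and each library left out. The replicate block was fitted over only the same-numbered libraries of the groups compared, with the gene set and scaling of the main fit. Leaving out ESC Host 4 and PGC-ESC DKO 2 together, and the parent pairs on plain CPM, were chosen after seeing the data.

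The members, lists and rules were chosen with earlier results of these data known. Named genes are, per comparison, up to 4 members called in each direction with the smallest adjusted p. Added to these are the stalk genes, Rpl5, Rpl11, Rps6, Rps27a, Rpl22, X-linked members, the 3 most and 3 least abundant per kb, the 4 with the largest and the 4 with the smallest SD, the related genes, and up to 3 called genes per other list. Some genes are not reported here.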

Additional observations from a re-analysis of the deposited data

Results flagged for a closer look

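In groups of at least 4 libraries, 14 of 58 sets of values had 1 library far from the rest by Dixon's criterion, where chance gives about 1 in 20. Sets from 1 library are not independent. ESC Host 4 was far above the other 3 ESC Host libraries for Rpl11 (1887 CPM), Rpl13a (3916 CPM), Rpl32 (1616 CPM), Rpl5 (2099 CPM), Rpl6 (2428 CPM), Rpl7a (1872 CPM) and Rps23 (2029 CPM). For Rpl7a the others were at 1377 to 1393 CPM, and for Rpl13a at 1511 to 1684 CPM.

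PGC-ESC BaxKO 5 stood above the other 4 libraries of its group in the members' share of counts (7.30%, others 6.62% to 6.67%) and in Rpl41 (700.0 CPM), Rplp1 (1535 CPM), Rps2 (1864 CPM) and Rps27a (899.9 CPM). It stood below them in Rpl3 (1272 CPM, others 1579 to 1685 CPM). It also had the highest Rn45s of its group, at 5106 CPM. In PGC-ESC BaxKO 2, Rpl26 had its only reads, at 0.0611 CPM against 0 in the other 4 libraries.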

How the results depend on the processing

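The counts below are of members. A count here or above without a share of tested genes beside it was not set against that share. Such counts show how a result moves with the processing and are not read as more or less than the background. In EpiLC Host against ESC Host the 0 became 46 with an Rn45s covariate, 9 in the high Rn45s set, 23 with the replicate block (pairing by line) and 8 without ESC Host 4 and PGC-ESC DKO 2. Leaving out single libraries gave 0 to 16, with 10, 2 and 16 without ESC Host 1, 2 and 3. In EpiLC DKO against PGC-ESC DKO the 27 became 14 with the covariate, 51 with the compared groups only, 57 with the replicate block, 53 without both libraries and 1 at an adjusted p under 0.01. Single libraries gave 1 to 49: 1 and 49 without PGC-ESC DKO 2 and 3, and 4, 5 and 11 without EpiLC DKO 1, 2 and 3.

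In PGC-ESC BaxKO against PGC-ESC DKO the 47 became 0 with the covariate and 6 at an adjusted p under 0.01, and single libraries gave 4 to 53, with 4 without PGC-ESC DKO 2 and 31 without PGC-ESC BaxKO 4. With the covariate Rpl11, Rpl32, Rpl41 and Rps6 turned to 0.027, 0.13, 0.10 and 0.030. The covariate runs with the groups in this comparison, so these values do not measure the part of Rn45s. In ESC BaxKO against ESC Host the 2 became 1 with the covariate and 0 with the compared groups only, in the high Rn45s set, in the low Rn45s set and at an adjusted p under 0.01, and 0 to 2 with single libraries left out. In PGC-ESC DKO against ESC Host single libraries gave 0 to 1.

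In these comparisons of undifferentiated lines the libraries share only a number. There the replicate block gave 11 in place of 47 in PGC-ESC BaxKO against PGC-ESC DKO and 0 in place of 2 in ESC BaxKO against ESC Host, with correlations from -0.24 to 0.05 between same-numbered libraries. It changed no other count. No paired analysis was possible for EpiLC DKO against EpiLC Host because the groups share only the number 3. RLE scaling, no filter on low counts, scaling without the members and leaving out Rn45s kept each count within 1.5 times. Beyond these causes built into each alternative, the cause was not tested. Except for the 4 nearly uncounted ones, every member had at least 100 CPM in every library. With 1 library per line, spread between lines and spread between library preparations cannot be told apart. The part of depth was not tested.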

Other observations

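ESC BaxHet, the single heterozygous line, entered no comparison. Its members took 6.51% of counts, the lowest share of the 20 libraries, and its Rn45s was also the lowest, at 1913 CPM. Rplp0 was at 1894 CPM, Rps2 at 2542 CPM, Rpl3 at 1646 CPM and Rpl29 at 492.5 CPM.

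Among genes of the translation control pathway in PGC-ESC BaxKO against PGC-ESC DKO, the mTORC1 component gene Akt1s1 was lower (-0.70 ± 0.15, adjusted p = 0.00371, edgeR) and Larp1, which binds TOP mRNAs, was higher (0.38 ± 0.12, adjusted p = 0.0291, edgeR). Mdm2, whose protein is bound by Rpl5 and Rpl11, was lower (-0.63 ± 0.16, adjusted p = 0.0104, edgeR). In both conversions Rps6kb2, 1 of the S6 kinase genes, fell (-0.92 ± 0.17 in Host lines, adjusted p = 0.000223, edgeR, with adjusted p = 3.95e-05 in DKO lines).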
